A study of Mus musculus with 20 samples.

Results

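Il10 encodes interleukin-10, and its RNA was followed in mouse splenic B cells stimulated through their antigen receptor, with and without the kinase TAK1. The gene was picked by its symbol. The array carries 1 probe set (10349603) annotated to Il10 and to no other gene, so the values below are those of 1 of 11968 genes tested. Il10 was singled out because its response to stimulation was smaller in TAK1-deleted arrays at 1, 3 and 6 h. Its values at 0, 1, 3 and 6 h are therefore given as measurements, without a test. The 24 h arrays did not enter that choice, and the genotypes were tested there.

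RNA of 20 samples was hybridised to Affymetrix Mouse Gene 1.0 ST arrays, 2 per group. The TAK1-deleted group is labelled mb-1/TAK1f/f (floxed alleles of Map3k7, the TAK1 gene) and the wild type group mb-1/TAK1+/+, so the mb-1 element was shared by both. The name mb-1 is another name for the B lineage gene Cd79a. The labels do not say what the mb-1 element is, nor in which cells the floxed alleles were deleted. All mice were C57BL/6, of mixed sex and 8 to 12 weeks old. In each genotype the groups were 0 h (unstimulated) and 1, 3, 6 and 24 h with anti-IgM at 10 µg/ml, an antibody that crosslinks the B cell receptor. B cells were obtained by magnetic removal of CD43-bearing spleen cells and were cultured in RPMI with serum. The labels do not say whether the 2 arrays of a group came from separate mice or cultures, so the spread that the p-values rest on is that between samples and could be technical.

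IL-10 is a cytokine that restrains inflammation. It is secreted as a dimer and binds a receptor of the chains IL-10Rα and IL-10Rβ, which activates the kinases JAK1 and TYK2 and the transcription factor STAT3. Some B cells make it, among them marginal zone, B-1 and plasma cells, and B cells that do so can limit T cell and macrophage responses. In B cells TAK1 lies downstream of the antigen receptor and activates the IKK complex, which frees NF-κB, and the stress-activated MAP kinases.

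Il10 was low in resting cells of both genotypes. Its log2 level was 5.81 and 5.80 in the TAK1-deleted arrays at 0 h, against 6.08 and 5.74 in the wild type arrays. The groups overlapped, and all 4 values lay between the 20.1 and the 26.4 percentile of the 35556 probe sets. They were also below 7.45, the median of all values and the level that a probe set had to reach in at least 2 arrays to be tested. Il10 reached that level in 7 of 20 arrays.

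At 1 h of anti-IgM the genotypes were far apart. Il10 measured 7.61 and 7.19 in TAK1-deleted arrays, against 10.27 and 9.67 in wild type arrays. Both wild type arrays were above both TAK1-deleted arrays. The wild type values stood at the 80.4 to 84.2 percentile of the array, and the TAK1-deleted values at the 44.6 to 52.7 percentile, so that 1 of 2 TAK1-deleted arrays stayed below the median of all values. Against their own 0 h arrays, the change was 1.59 ± 0.24 on the log2 scale in TAK1-deleted cells and 4.06 ± 0.24 in wild type cells (± SE, n = 2 arrays per group, limma). As folds these are 3.02 in TAK1-deleted and 16.7 in wild type cells. The wild type change was the 12th highest of 11968 genes.

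**Figure D1:**
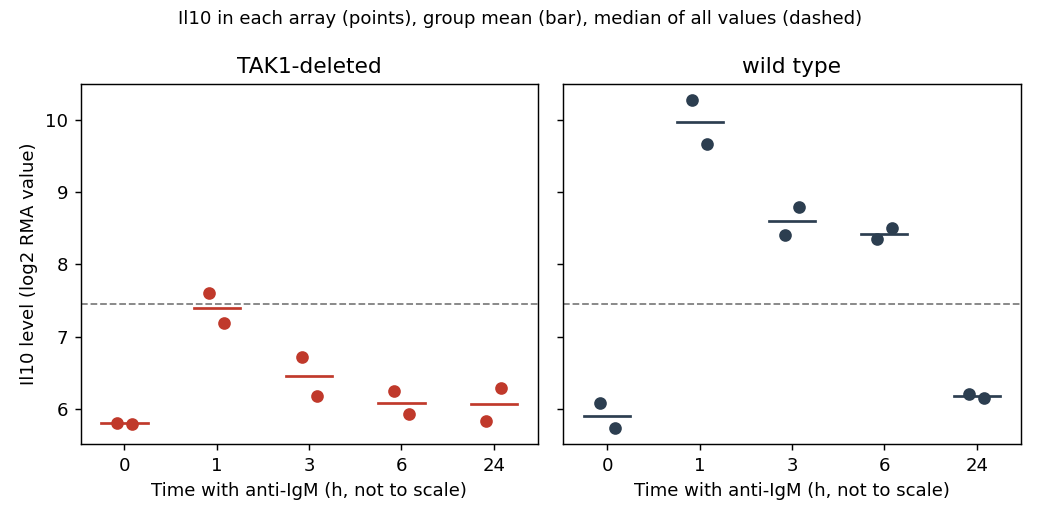
Log2 RMA value of Il10 (vertical axis) in each array by time with anti-IgM in hours (horizontal axis), TAK1-deleted on the left and wild type on the right. Points are arrays, bars are means of 2 arrays, and the dashed line is the median of all values, 7.45. Wild type arrays at 1, 3 and 6 h lie between 8.35 and 10.27, and 1 TAK1-deleted array, at 1 h, lies above the line.

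At 3 and 6 h the genotypes stayed apart. At 3 h Il10 was 6.73 and 6.18 in TAK1-deleted arrays, against 8.40 and 8.79 in wild type arrays. At 6 h it was 6.25 and 5.93 in TAK1-deleted arrays, against 8.35 and 8.50 in wild type arrays. At neither time did the genotypes overlap. The wild type groups of 3 and 6 h overlapped each other, with means of 8.60 ± 0.28 and 8.42 ± 0.11 (SD, n = 2 each), a plateau below the 1 h peak of 9.97 ± 0.43. In TAK1-deleted cells the mean of 6.45 ± 0.38 at 3 h was followed by 6.09 ± 0.23 at 6 h, where the arrays lay above both unstimulated TAK1-deleted arrays (5.81 and 5.80) and overlapped the unstimulated wild type arrays. Set against 0 h, the change in TAK1-deleted cells was 0.65 ± 0.24 at 3 h and 0.28 ± 0.24 at 6 h (± SE). The wild type changes were 2.69 ± 0.24 at 3 h and 2.51 ± 0.24 at 6 h.

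TAK1-deleted minus wild type, the difference in Il10 was -0.11 at 0 h, -2.57 at 1 h, -2.14 at 3 h and -2.34 at 6 h, each ± 0.24 (SE). Il10 was thus 5.94-fold lower at 1 h, 4.41-fold lower at 3 h and 5.05-fold lower at 6 h in TAK1-deleted arrays, and the 5th lowest difference of all genes at each of these times. Taking the change from 0 h in each genotype, TAK1-deleted minus wild type, as the choice of Il10 did, the contrast was -2.47 ± 0.33 at 1 h, -2.04 ± 0.33 at 3 h and -2.23 ± 0.33 at 6 h (SE). Among the 11968 genes it ranked lowest at 1 and 3 h and the 3rd lowest at 6 h. Measured as a share of the wild type change in log2, the TAK1-deleted change was 39.3% at 1 h, 24.2% at 3 h and 11.2% at 6 h. The arrays of a group differed widely in this share: from those numbered 1 alone it was 39.3% at 3 h and 19.2% at 6 h, and from those numbered 2 alone 12.7% at 3 h and 4.70% at 6 h. On the linear scale the shares from the means were 11.9%, 10.1% and 4.41% at these times. RMA leaves a background in the values, so that folds against groups in which Il10 is dim can be understated.

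Step by step, the largest move after the peak in wild type cells came between 6 and 24 h. Between 1 and 3 h Il10 moved by -0.94 ± 0.24 in TAK1-deleted cells and by -1.37 ± 0.24 in wild type cells (log2, SE). Between 3 and 6 h the step was -0.37 in TAK1-deleted and -0.17 in wild type cells, with the same SE, which is within 2 standard errors of 0 in both. The step from 6 to 24 h was -0.02 in TAK1-deleted cells and -2.24 in wild type cells.

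By 24 h Il10 had no detectable genotype difference. It measured 5.84 and 6.29 in TAK1-deleted arrays, against 6.21 and 6.15 in wild type arrays, and the wild type values lay inside the TAK1-deleted range. The difference was -0.12 ± 0.24 (SE, limma, Benjamini-Hochberg adjusted p = 0.855), with a 95% interval of -0.62 to 0.38 on the log2 scale. All 4 arrays were below the median of all values, so that the test compared levels near the floor of the array, and a difference within that interval was not detectable with 2 arrays per group. Across the array, 7.04% of genes were higher and 5.18% were lower in TAK1-deleted cells at 24 h (adjusted p below 0.05, the rule for every call below). Against 0 h the 24 h change in Il10 was 0.26 ± 0.24 in TAK1-deleted and 0.27 ± 0.24 in wild type cells.

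In the order of the group means, wild type 1 h came first, then wild type 3 h and 6 h, whose arrays overlapped, then TAK1-deleted 1 h at 7.40 and TAK1-deleted 3 h at 6.45. Below these came wild type 24 h (6.18), TAK1-deleted 6 h (6.09), TAK1-deleted 24 h (6.06), wild type 0 h (5.91) and TAK1-deleted 0 h (5.81). From TAK1-deleted 3 h downward each group overlapped the next one, so neighbours in this order do not differ beyond their spread. Both TAK1-deleted arrays at 1 h, their highest group, were below all 6 wild type arrays of 1 to 6 h.

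Counts of called genes are read below against the share called over all 11968 genes. For TAK1-deleted against wild type that share was 1.5% higher and 0.819% lower at 0 h, 2.07% higher and 2.21% lower at 1 h, 1% higher and 1.7% lower at 3 h, and 0.927% higher and 1.6% lower at 6 h. For wild type cells against their 0 h arrays it was 10.6% higher and 13.9% lower at 1 h, 20.9% higher and 23.2% lower at 3 h, 24.1% higher and 19.1% lower at 6 h, and 23.6% higher and 20.2% lower at 24 h. Markers of other cells that can make IL-10 also moved between the genotypes. All 7 pan B cell markers measured were above the median of all values in every group, and 0 were called by limma between the genotypes from 0 to 6 h, where at most 2 of 7, at 3 h, had an unadjusted p below 0.05. T cell markers were lower in TAK1-deleted cells in 2 of 7 at 0 h, 5 of 7 at 1 h, 1 of 7 at 3 h and 2 of 7 at 6 h. Their summed linear level at 1 h was 3452 to 4442 in TAK1-deleted arrays, against 7272 to 9049 in wild type arrays. At 0 h it was 3863 to 5101 in TAK1-deleted arrays, against 6499 to 8063 in wild type arrays. In wild type cells 1 of 7 T cell markers was called higher at 1 h than at 0 h. Such markers do not show how much Il10 RNA each cell type held, and this was not tested.

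NK cell markers were lower in TAK1-deleted cells in 3 of 6 at 0 h, 4 of 6 at 1 and 3 h and 3 of 6 at 6 h. Their sum at 1 h was 2761 to 3240 in TAK1-deleted arrays, against 5565 to 6542 in wild type arrays. Plasma cell markers were lower in 3 of 6 at 0 h, 2 of 6 at 1 h and 1 of 6 at 3 and 6 h, with a sum at 1 h of 4911 to 5631 in TAK1-deleted arrays, against 9638 to 11749 in wild type arrays. Jchain, the joining chain of secreted IgM and IgA, was 1 of those lower, with a difference of -4.96 at 1 h (adjusted p = 3.99e-12). Jchain was below 7.45 in every TAK1-deleted array, so it reached the level for a test through wild type arrays alone. The same holds for the NK cell marker Klrb1c, and calls of such genes are not independent of the group where they are high. Each of these 3 sums was lower in both TAK1-deleted arrays than in both wild type arrays at 1 h.

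Marginal zone markers were lower in 1 of 7 at 1 h and 2 of 7 at 3 and 6 h. At an unadjusted p below 0.05 (limma), 4 of 7 were lower and 1 was higher at 3 and 6 h. Their sum at 1 h was 14450 to 15602 in TAK1-deleted arrays, against 14751 to 17098 in wild type arrays, which overlapped. At 0, 3 and 6 h the sums were lower in TAK1-deleted arrays and did not overlap. They were 13794 to 15169 against 15266 to 15934 at 0 h, 10880 to 12209 against 12994 to 14549 at 3 h, and 8722 to 9688 against 11331 to 11953 at 6 h. B-1 cell markers were called lower by limma in 0 of 5 at 0 and 1 h, where 4 of 5 had an unadjusted p below 0.05, and in 1 of 5 at 3 and 6 h, with a sum at 1 h of 2744 to 3193 in TAK1-deleted arrays, against 3530 to 4829 in wild type arrays, which did not overlap. Monocyte or macrophage markers were called by limma in 0 of 12 from 0 to 6 h (5 of 12 had an unadjusted p below 0.05 at 1 h, 4 of them higher), with a sum at 1 h of 9957 to 11427 in TAK1-deleted arrays, against 8617 to 10650 in wild type arrays. The 2 ranges overlapped. Dendritic cell markers were higher in TAK1-deleted cells in 1 of 7 at 0, 1, 3 and 6 h, and neutrophil markers in 2, 3, 2 and 1 of 7 at these times. Members of both lists also went the other way at an unadjusted p below 0.05 (limma). Of the neutrophil markers 5 were then higher and 2 lower at 0 h, and 4 higher and 1 lower at 1 and 3 h. Of the dendritic cell markers 1 was higher and 1 lower at 0 and 3 h, and 2 higher and 2 lower at 1 h. Of the mast cell or basophil markers 1 of 4, Cpa3, reached the level for a test, lower at 0 and 1 h and higher at 24 h. Erythroid markers were higher in TAK1-deleted cells in 8 of 8 at 0 and 1 h and 7 of 8 at 3 and 6 h. Cpa3 reached that level in wild type arrays alone, and the erythroid markers Rhd and Rhag in TAK1-deleted arrays alone. In bulk RNA, fewer cells of a type and less RNA per cell cannot be told apart. The part of T, NK, plasma, B-1 and marginal zone cells in the Il10 difference was not tested.

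**Figure D2:**
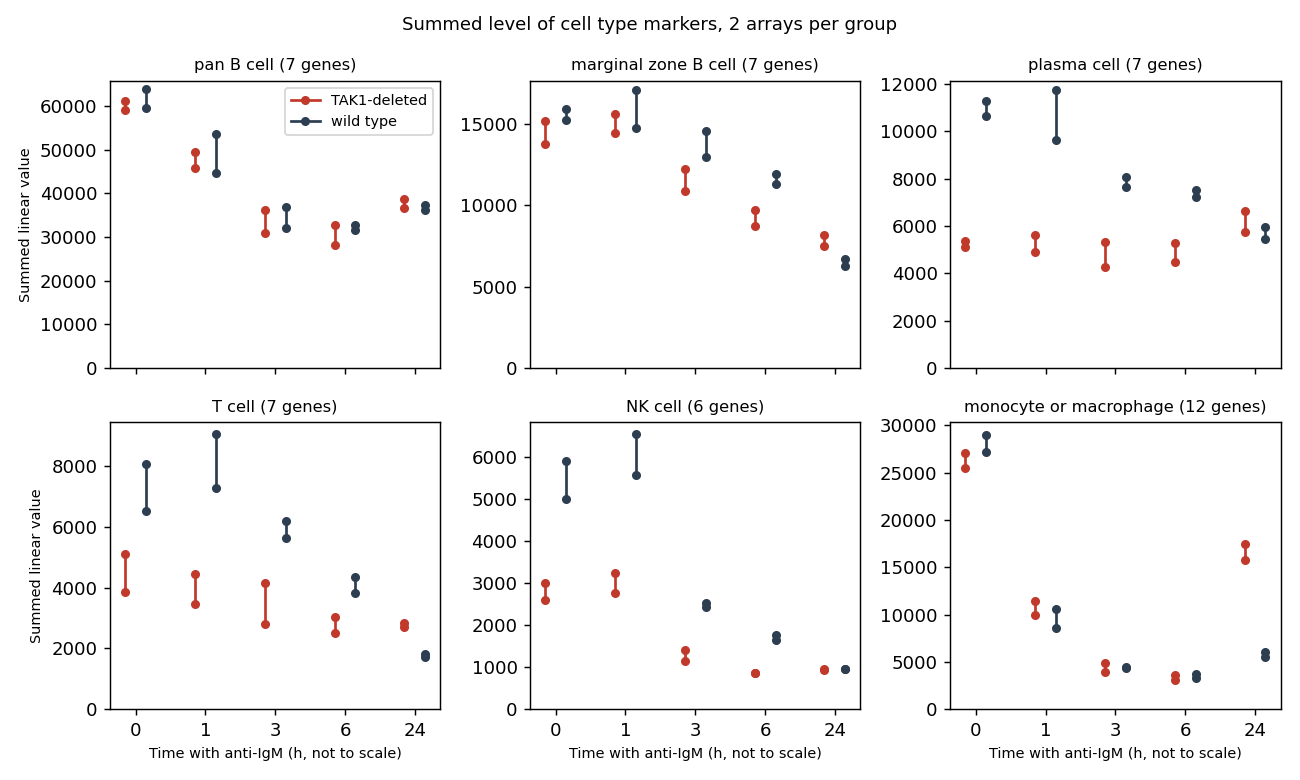
Summed linear values of cell type marker lists (vertical axes, from 0) by time with anti-IgM in hours (horizontal axes). Each line joins the 2 arrays of a group, TAK1-deleted left of wild type. T cell, NK cell and plasma cell sums are lower in TAK1-deleted arrays at 0, 1, 3 and 6 h, and the plasma cell sum includes Jchain. Pan B cell sums overlap at each time, and the monocyte or macrophage sum is higher in TAK1-deleted arrays at 24 h.

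Il10 lies in a cluster of related cytokine genes. In the order of the GRCm38.p6 gene table its neighbours are Il20, Il19 and the non-coding gene Gm41952 on the side before it, and Mapkapk2, the pseudogene Gm25549 and the non-coding gene Gm51643 after it. Il19 and Il20, which encode cytokines of the IL-10 family that act mainly on epithelial cells, were dim in all 20 arrays. Il19 ranged from 6.19 to 6.77 and Il20 from 5.67 to 6.10, and Il24, another family member, from 5.87 to 6.49, while Il22 and Ifnl3 were not analysed here. These 3 genes never reached the level required for a test, and their ranges spanned less than 1 log2 unit where Il10 spanned over 4. Ifnl2, the interferon lambda gene and the only family member tested, was called in no contrast. Mapkapk2, the kinase MK2, which acts below p38 and protects cytokine mRNAs from decay, was well expressed at 10.48 to 11.49. Its difference between genotypes was -0.27 ± 0.17 at 1 h and 0.00 ± 0.17 at 3 h (SE), with no call at any time. In wild type cells it rose by 0.57 ± 0.17 at 1 h (adjusted p = 0.0199), a call that was lost without wild type 1 h replicate 1 or wild type 0 h replicate 2 (adjusted p up to 0.117).

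The receptor for IL-10 showed another course. Il10ra, the ligand-binding chain, fell in wild type cells, with changes of -2.003 ± 0.165 at 3 h (adjusted p = 1.08e-07), -2.43 ± 0.16 at 6 h and -1.96 ± 0.16 at 24 h (SE, n = 2 arrays per group). At 6 h it measured 9.08 and 9.02 in TAK1-deleted arrays, against 8.79 and 8.89 in wild type arrays, and its genotype difference passed the test at none of 0, 1, 3 and 6 h. At 24 h Il10ra was 10.21 and 10.06 in TAK1-deleted arrays, against 9.44 and 9.18 in wild type arrays. This difference of 0.82 ± 0.16 was called (adjusted p = 0.0035) and was kept with each array left out in turn. At 3 and 6 h, when Il10 was high in wild type cells, Il10ra was below its resting level in both genotypes. Il10rb, the shared second chain, changed less, with 10.85 to 11.70 over all arrays, and fell by 0.66 ± 0.12 in wild type cells at 24 h (adjusted p = 0.000404). Monocyte or macrophage markers fell over the same interval: 10 of 12 were lower in wild type cells at 3 h than at 0 h, with a summed linear level of 4369 to 4510 at 3 h, against 27228 to 29024 at 0 h. Of the dendritic cell markers 6 of 7 were lower at 3 h. The part of these cells in the Il10ra change, and in that of Maf given further on, was not tested.

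Downstream of the receptor, Stat3 rose in wild type cells by 0.56 ± 0.10 at 1 h and by 1.41 ± 0.10 at 3 h (adjusted p = 1.77e-08). Its genotype difference at 3 h was -0.46 ± 0.10 (adjusted p = 0.0153), with 12.53 and 12.55 in TAK1-deleted arrays, against 12.94 and 13.06 in wild type arrays. That call was lost without any 1 of the 4 arrays (adjusted p up to 0.183). Socs3, a feedback inhibitor that STAT3 induces, rose by 1.40 ± 0.15 in wild type cells at 1 h (adjusted p = 4.79e-06). At 1 h Socs3 was 9.92 and 9.49 in TAK1-deleted arrays, against 10.33 and 10.05 in wild type arrays, a difference of -0.48 ± 0.15 that was not called. Of the 8 receptor and signalling genes tested, 0 were called by limma between the genotypes at 0, 1 and 6 h, where 0, 1 and 2 had an unadjusted p below 0.05, and 1 was lower at 3 h.

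The lists of related genes held 93 tested genes besides Il10. TAK1-deleted against wild type, 1 of them was higher and 2 lower at 0 h, 1 higher and 6 lower at 1 h, 0 higher and 11 lower at 3 h, 0 higher and 11 lower at 6 h, and 20 higher and 5 lower at 24 h. Whichever of the 4 arrays of a time was left out, the count of calls dropped, to 0 or 1 for 0 h, to between 4 and 7 for 6 h, and to between 10 and 16 for 24 h. At 3 h it was 5 without wild type replicate 1 and 7 without TAK1-deleted replicate 2.

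Most transcription factors known to act on Il10 responded to anti-IgM in wild type cells. Of 26 tested, 19 rose and 1 fell at 1 h, 16 rose and 4 fell at 3 h, and 15 rose and 6 fell at 6 h in wild type cells. Their median change at 1 h was 0.83, beside -0.05 over all genes. Egr2, an early response factor, rose by 3.88 ± 0.22 (adjusted p = 3.91e-09), Jun by 2.89 ± 0.22, Fos by 2.72 ± 0.17 and Egr1 by 2.70 ± 0.19 at 1 h (SE). Jun and Fos encode components of the AP-1 dimer. Irf4, a factor of activated B cells and plasma cells, rose by 2.10 ± 0.14 at 1 h (adjusted p = 1.55e-08), and Rel, the NF-κB subunit c-Rel, by 0.87 ± 0.10 (adjusted p = 8.07e-06).

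Between the genotypes the differences in these early factors were small beside those of Il10. TAK1-deleted minus wild type at 1 h, the difference was -0.07 for Egr1, -0.32 for Fos, -0.16 for Irf4, -0.09 for Rel and -0.01 for Nfatc1, the calcium-dependent factor NFATc1, and none was called. Of the 26 factors, 1 was lower at 1 h, 2 were lower at 3 h and 2 were lower at 6 h in TAK1-deleted cells, with medians of -0.15, -0.10 and -0.16 at these times, beside 0.03 at 1 h and 0.01 at 3 h over all genes. The share called lower was 2.21%, 1.7% and 1.6% of all genes at these times. At an unadjusted p below 0.05, 7 of the 26 were lower and 2 higher at 0 h, and 4 were lower and 2 higher at 1 h.

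Batf, which pairs with JUN proteins and IRF4 on DNA, was the factor with a call at 1, 3, 6 and 24 h. At 1 h it measured 7.86 and 8.25 in TAK1-deleted arrays, against 8.88 and 9.08 in wild type arrays. At 3 h it measured 8.10 and 8.23 in TAK1-deleted arrays, against 9.43 and 9.59 in wild type arrays. At 6 h it was 8.33 and 8.55 in TAK1-deleted arrays, against 9.41 and 9.72 in wild type arrays. Its groups did not overlap at any of these times. They were also apart before stimulation, with 7.78 and 7.95 in TAK1-deleted arrays at 0 h, against 8.18 and 8.33 in wild type arrays, a difference that was not called. The change from 0 h in Batf was called as different between the genotypes at no time. Batf differed by -0.92 at 1 h, -1.35 at 3 h, -1.13 at 6 h and -0.88 at 24 h, each ± 0.16 (SE). The limma adjusted p was 0.00189, 0.000121, 0.000723 and 0.00151 in that order, and each call was kept with each array left out. At 24 h, when Il10 was not called, Batf was.

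Nfil3, a basic leucine zipper repressor and activator that takes part in Il10 induction in T cells, was the other factor that was lower. At 3 h it measured 8.26 and 7.97 in TAK1-deleted arrays, against 9.71 and 9.14 in wild type arrays, a difference of -1.31 ± 0.23 (adjusted p = 0.00399). At 6 h it measured 8.38 and 7.98 in TAK1-deleted arrays, against 9.71 and 9.37 in wild type arrays, a difference of -1.36 ± 0.23 (adjusted p = 0.00335). These calls were lost without wild type replicate 1 or TAK1-deleted replicate 2 of the time (adjusted p up to 0.0862 at 3 h and 0.0741 at 6 h). At 1 h the Nfil3 difference was -0.33 and was not called.

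Maf, the factor c-Maf, which drives Il10 in macrophages and T cells, was higher in wild type cells at 1 h, the time of the Il10 peak, with a change of 0.81 ± 0.22 (adjusted p = 0.0144). That call was lost without wild type 1 h replicate 1 or wild type 0 h replicate 2 (adjusted p up to 0.142). Maf then fell below its 0 h level in wild type cells, with changes of -1.30 ± 0.22 at 3 h and -1.75 ± 0.22 at 6 h (adjusted p = 1.01e-05), while Il10 was on its plateau. At 24 h Maf was 9.89 and 9.85 in TAK1-deleted arrays, against 8.79 and 8.51 in wild type arrays (difference 1.22 ± 0.22, adjusted p = 0.00187). Prdm1, the gene of the plasma cell factor Blimp-1 and also a member of the plasma cell marker list, rose by 1.95 ± 0.28 in wild type cells at 1 h (adjusted p = 8.08e-05). Prdm1 was 9.65 and 9.15 in TAK1-deleted arrays at 1 h, against 10.72 and 10.05 in wild type arrays. The groups did not overlap, but the difference of -0.98 ± 0.28 was not called (limma adjusted p = 0.0659).

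No regulator of mRNA stability was called between the genotypes from 0 to 6 h. Cytokine mRNAs are cleared through AU-rich elements and stem loops bound by proteins such as tristetraprolin (Zfp36) and Regnase-1 (Zc3h12a). Of the 9 genes of this kind tested with limma, 0 were called at 0, 1, 3 and 6 h, and 1, at 1 h, had an unadjusted p below 0.05. Their median difference was -0.19 at 1 h, beside 0.03 over all genes. Zfp36 measured 12.78 and 12.39 in TAK1-deleted arrays at 1 h, against 13.03 and 12.50 in wild type arrays, which overlapped. In wild type cells at 1 h Zc3h12a rose by 1.47 ± 0.15 (adjusted p = 3.3e-06).

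The genes of the route from TAK1 to IKK and the MAP kinases were likewise not called in RNA level. Of 16 tested with limma, 0 were called between the genotypes at 0, 1, 3 and 6 h, and 1, 1, 0 and 1 had an unadjusted p below 0.05 at these times. At 24 h Malt1 was lower by its call (adjusted p = 0.0372), which was lost without wild type replicate 1 or either TAK1-deleted replicate (adjusted p up to 0.309). Map3k7 itself, the deleted gene, was 10.60 and 10.40 in TAK1-deleted arrays at 0 h, against 10.32 and 10.16 in wild type arrays. Over the 5 times its difference ranged from 0.06 to 0.30 and was never called. The sources used here give neither the part of Map3k7 that the probes cover nor the part that is deleted, so this probe set does not check the genotype labels.

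Among other cytokines, Il4 was lower in TAK1-deleted cells at 1 and 3 h. Of 25 listed, 17 were tested, and TAK1-deleted against wild type 1 was lower at 0 h, 1 was higher and 2 were lower at 1 h, 1 was lower at 3 h and 2 were lower at 6 h. The call at 0 h was Il1b, with a difference of -0.81 (limma adjusted p = 0.00659). It was lost without wild type replicate 1 or TAK1-deleted replicate 2 of that time. Il4, the gene of interleukin-4, was 7.40 and 6.99 in TAK1-deleted arrays at 1 h, against 8.98 and 8.29 in wild type arrays. Il4 differed by -1.44 ± 0.19 at 1 h (limma adjusted p = 0.000229), and by -1.35 ± 0.19 at 3 h with adjusted p = 0.000782, both kept with each array left out. Every TAK1-deleted array was below 7.45 for Il4, so it reached the level for a test through wild type arrays of 1, 3 and 6 h alone. Its calls are therefore not independent of the group where Il4 was high. The 2 calls of 6 h were Il4 (-0.89, adjusted p = 0.0194) and Il15 (-0.73, adjusted p = 0.0106), and both were lost without any 1 of the 4 arrays. Il12b, a subunit of the inflammatory cytokines IL-12 and IL-23, went the other way at 1 h, with 8.25 and 8.21 in TAK1-deleted arrays, against 7.52 and 7.43 in wild type arrays (difference 0.75 ± 0.13, adjusted p = 0.00264). Ifng, the interferon gamma gene, differed by -0.64 ± 0.16 at 1 h (adjusted p = 0.028), a call lost without wild type replicate 1 or either TAK1-deleted replicate of that time (adjusted p up to 0.231). Il4 and Ifng are best known from T cells, whose markers were lower in the same arrays, and their part in these differences was not tested.

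Among other cytokines that B cells are known to make, Tnf and Lta were not called between the genotypes while Il10 was high, and Il6 was not tested. Tnf rose by 1.28 ± 0.19 in wild type cells at 1 h (adjusted p = 0.000121), and stood at 10.47 and 10.39 in TAK1-deleted arrays, against 10.80 and 10.49 in wild type arrays, a difference of -0.21 that was not called. At 6 h Tnf was 9.26 and 8.85 in TAK1-deleted arrays, against 9.60 and 9.66 in wild type arrays, which did not overlap, and the difference of -0.58 ± 0.19 was not called (limma adjusted p = 0.166). Lta, the lymphotoxin alpha gene, fell by 1.51 ± 0.20 in wild type cells at 3 h (adjusted p = 1.29e-05) and was called in no genotype comparison. Il6 stayed below the level required for a test. It was 5.81 and 5.29 in TAK1-deleted arrays at 1 h, against 6.40 and 5.48 in wild type arrays, which overlapped.

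At 24 h more cytokines were higher in TAK1-deleted cells. Of the 17 cytokines, 9 were higher and 0 were lower in TAK1-deleted cells, with a median difference of 0.50 on the log2 scale. The calls kept with each array left out were Il1a (2.07 ± 0.31, adjusted p = 0.000321), Il1b (1.57 ± 0.15, adjusted p = 6.09e-06), Il12b (1.18 ± 0.13, adjusted p = 2.94e-05) and Ltb (0.79 ± 0.12, adjusted p = 0.000483). In the same arrays 10 of 12 monocyte or macrophage markers and 7 of 7 neutrophil markers were higher in TAK1-deleted cells. The summed linear level of the monocyte or macrophage markers was 15771 to 17463 in TAK1-deleted arrays, against 5564 to 6025 in wild type arrays. Of the T cell markers 3 of 7 were higher and 0 lower at 24 h, with a sum of 2693 to 2834 in TAK1-deleted arrays, against 1707 to 1813 in wild type arrays, and 3 of 7 dendritic cell markers were higher. The part of these cells in the 24 h calls, Il10ra, Maf and Ifng among them, was not tested.

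**Figure D3:**
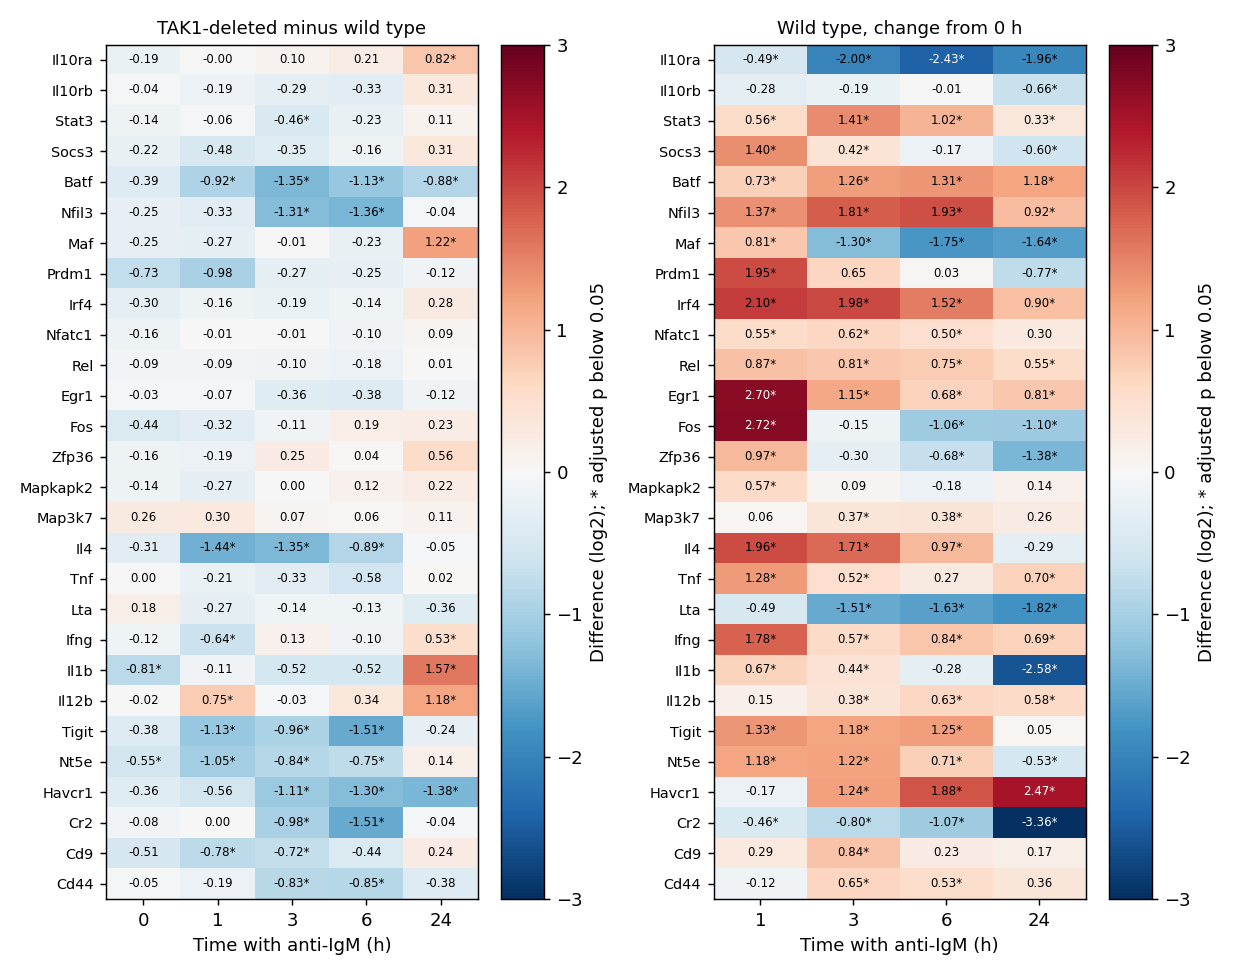
Log2 differences of genes of the IL-10 pathway, its regulators, other cytokines and surface molecules (rows) by time with anti-IgM in hours (columns), TAK1-deleted minus wild type on the left and wild type change from 0 h on the right. Colour and number give the difference from means of 2 arrays, and an asterisk marks a limma adjusted p below 0.05. On the left Batf is lower in TAK1-deleted cells with an asterisk from 1 h on, while Egr1, Fos, Rel and Irf4 carry no asterisk.

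Surface molecules listed here for B cells able to make IL-10 were often lower in TAK1-deleted cells from 1 to 6 h, but not at 24 h. Of 16 tested, 1 was lower at 0 h, 3 at 1 h, 7 at 3 h and 7 at 6 h, and 0 were higher at these times, also at an unadjusted p below 0.05 (limma). Not all of these calls were kept with each array left out: Cd40 at 3 and 6 h and Fcer2a at 6 h were among those lost. Cd1d1, Cd5 and Cd24a were not called from 0 to 6 h. Cd1d1 at 3 h was 7.08 and 7.15 in TAK1-deleted arrays, against 6.86 and 6.73 in wild type arrays. Their median difference was -0.14 at 0 h, -0.24 at 1 h, -0.58 at 3 h and -0.42 at 6 h. Over all genes it was 0.01 at 0 h, 0.03 at 1 h and 0.01 at 3 h. At 24 h 5 were higher and 1 was lower, with a median of 0.23. Tigit, an inhibitory receptor of T and NK cells, was 8.77 and 8.63 in TAK1-deleted arrays at 1 h, against 9.98 and 9.68 in wild type arrays (difference -1.13 ± 0.19, adjusted p = 0.00163). Nt5e, the ectoenzyme CD73 that makes adenosine, differed by -1.05 ± 0.12 at 1 h (adjusted p = 5.49e-05) and by -0.84 ± 0.12 at 3 h. Both were high early in wild type cells, as Il10 was. Unlike Il10, neither overlapped between the genotypes at 0 h. Tigit was then 8.09 and 8.15 in TAK1-deleted arrays, against 8.41 and 8.60 in wild type arrays, and was not called. Nt5e at 0 h was 7.19 and 7.23 in TAK1-deleted arrays, against 7.82 and 7.70 in wild type arrays. This difference of -0.55 was called (limma adjusted p = 0.022), a call lost without any 1 of the 4 arrays. In the same arrays of 1 h, 5 of 7 T cell markers and 4 of 6 NK cell markers were lower in TAK1-deleted cells, and their part in the surface molecule calls was not tested.

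Havcr1, the receptor TIM-1, took a later course. It rose in wild type cells by 1.24 ± 0.16 at 3 h, by 1.88 ± 0.16 at 6 h and by 2.47 ± 0.16 at 24 h (adjusted p = 8.78e-09). At 6 h it measured 8.17 and 7.78 in TAK1-deleted arrays, against 9.25 and 9.29 in wild type arrays, and at 24 h the difference was -1.38 ± 0.16 (adjusted p = 4.23e-05). So Havcr1 was lower in TAK1-deleted cells at 24 h, when Il10 was at its floor in both genotypes. Cr2, the complement receptor CD21, abundant on marginal zone B cells, fell in wild type cells and was lower still in TAK1-deleted cells at 6 h, with 10.09 and 10.00 in TAK1-deleted arrays, against 11.58 and 11.54 in wild type arrays (difference -1.51 ± 0.15, adjusted p = 3.81e-05). The named calls of Tigit at 1 h, Nt5e at 1 and 3 h, Havcr1 and Cr2 were kept with each array left out. Cr2, Cd9 and Cd1d1 also belong to the marginal zone marker list.

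The 10 genes most like Il10, by Pearson correlation of log2 values over the 20 arrays among all genes tested, were Tnfaip3 (r = 0.953), Il4 (0.948), Tigit (0.930), Ctla4 (0.927), Adm (0.917), Ccr8 (0.915), Plcxd2 (0.912), Nfkbiz (0.911), Prrg4 (0.908) and Egln3 (0.905). The arrays share groups, so these values describe a common course and carry no test. Ranking by Spearman's rho over the arrays kept 4 of the 10, and Pearson r over the 10 group means kept 9. Tnfaip3, the inhibitor A20 that switches off NF-κB signalling, had 10.99 and 10.97 in TAK1-deleted arrays at 1 h, against 12.36 and 12.05 in wild type arrays. At 6 h Tnfaip3 was 9.91 and 9.78 in TAK1-deleted arrays, against 11.10 and 11.01 in wild type arrays. Nfkbiz, the nuclear IκB protein that helps switch on secondary NF-κB targets, had 11.29 and 11.14 in TAK1-deleted arrays at 1 h, against 12.23 and 11.96 in wild type arrays.

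Both genes were above their resting level in both genotypes at 1 h. At 1 h the change from 0 h in Tnfaip3 was 1.60 in TAK1-deleted and 2.68 in wild type cells (log2), and in Nfkbiz it was 2.16 in TAK1-deleted and 2.67 in wild type cells. For Il10 the same values were 1.59 in TAK1-deleted and 4.06 in wild type cells. Ctla4 and Ccr8, receptors best known from T cells, had changes at 1 h of 1.23 and 1.18 in TAK1-deleted cells, against 1.93 and 2.34 in wild type cells. Adm encodes the peptide hormone adrenomedullin and Egln3 an oxygen-sensing prolyl hydroxylase. All 10 genes were lower in TAK1-deleted than in wild type arrays at 1, 3 and 6 h by their means, which the measure of likeness favours, and none by as much as Il10. At 0 and 24 h, where Il10 differed by -0.11 and -0.12, not all of the 10 were near 0. Their differences ran from -0.63 (Adm) to 0.27 (Egln3) at 0 h and from -0.70 (Adm) to 0.02 (Ccr8) at 24 h.

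**Figure D4:**
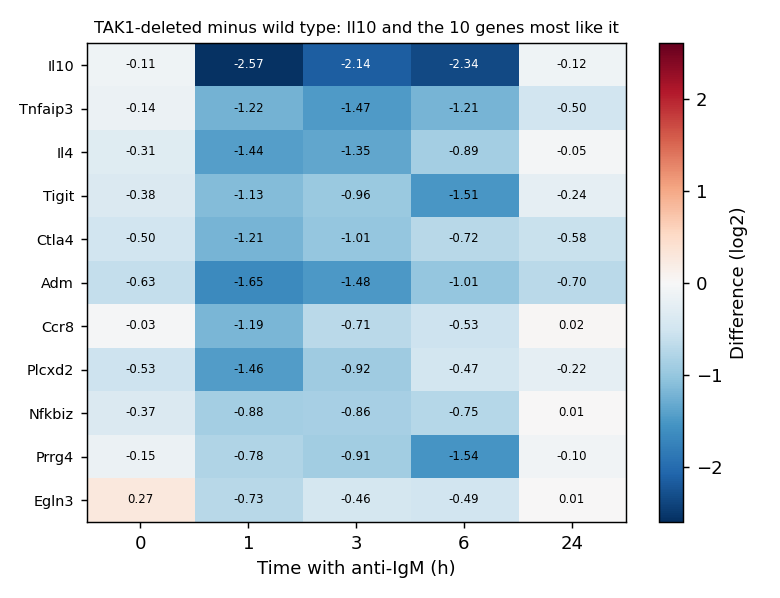
TAK1-deleted minus wild type difference in log2 level (colour and number, from means of 2 arrays) of Il10 and the 10 genes with the highest correlation with it (rows) by time with anti-IgM in hours (columns). Il10 has differences of -2.57, -2.14 and -2.34 at 1, 3 and 6 h, and each of the other genes lies nearer to 0 at these times.

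Because NF-κB lies below TAK1, the 250 bases before the start sites of these genes were searched, from the RefSeq promoter table of build GRCm38.p6, which held 9 of the 10 (Nfkbiz was not searched, nor was Il10) with 11 start sites. The κB consensus was sought by name on both strands, and 1 of the 11 windows held it, that of the first Tnfaip3 start site, beside 7.251% of the 32851 windows in the table. This window, chr10:19015411-19015660 on the minus strand, is shown because Tnfaip3 is the gene most like Il10. It reads 5′ to 3′ toward the start site, with the 2 κB matches in capitals, beginning at positions -125 and -12 from the start:
Tnfaip3: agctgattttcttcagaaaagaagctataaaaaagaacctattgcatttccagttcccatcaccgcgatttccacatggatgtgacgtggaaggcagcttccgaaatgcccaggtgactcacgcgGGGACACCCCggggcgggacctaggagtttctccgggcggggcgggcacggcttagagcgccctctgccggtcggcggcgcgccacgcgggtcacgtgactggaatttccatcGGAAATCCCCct
The same window holds the AP-1 motif TGANTCA (6.749% of windows) and the letters TATAAA of the TATA box motif (12.37% of windows). The TATAAA match lies near the 5′ end of the window, far from the start site. The CRE motif TGACGTCA (1.546% of windows) and the STAT motif TTCNNNGAA (7.02% of windows) were in none of the 11. The κB match at -125 fits both strands and was counted once, and no match of one motif overlapped that of another in this window. A match is a run of letters, not a measured binding site.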

How the data were processed

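The data were 20 arrays of RNA, 2 per group of genotype and time. The authors deposited log2 values that, per the submitters' processing notes, came from RMA in Affymetrix Expression Console 1.0. Genome build and annotation: not given in the sources used here. They were used as deposited: 35556 probe sets from 3.64 to 14.68, array medians of 7.37 to 7.52, and correlations of 0.979 to 0.994 between the arrays of a group. The platform annotation gave 1 symbol to 21789 probe sets and several to 1621, which named no gene. Probe sets that 2 or more arrays placed at or above 7.45, the median over the table, were kept, with the brightest probe set per gene, which left 11968 genes.

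In R 4.3.3, limma 3.58.1 was run on all 20 arrays (lmFit on the 10 groups, contrasts.fit, then eBayes with its trend option), two-sided, with Benjamini-Hochberg adjustment within each contrast at 0.05 (10 residual degrees of freedom, a prior of 5.47). The fit was tested on simulated data. Precision is limited by the number of arrays, and the median SE of a group difference was 0.16. Il10 itself was tested at 24 h alone. Il10, the 7 gene lists and the 11 marker lists were chosen with earlier results of these data known, and so are no independent support. Named were Il10, up to 4 called genes per list and contrast by size, a set of 23 genes always looked up (those with no single-symbol probe set, such as Nfkb1, are not analysed here), the 10 genes most like Il10 and its 3 nearest genes on each side. Among these the text gives mainly calls kept with each array left out, which was decided with the values in view. Cd44 is drawn beyond the rule. Alternatives were the replicate number as a block, other filters, quantile normalization, eBayes settings, a fit of the 24 h arrays alone and each array left out.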

Additional observations from a re-analysis of the deposited data

Results flagged for a closer look

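In each case below the change from 0 h differed between the genotypes by the interaction term (TAK1-deleted minus wild type change, log2, limma, Benjamini-Hochberg adjusted p below 0.05). Of the 93 listed genes tested, 0 were called at 1 h, 0 at 3 h, 1 at 6 h and 14 at 24 h, beside 0.109%, 0.0585%, 0.284% and 8.66% of all genes at these times. At 6 h Cr2 changed by -2.50 in TAK1-deleted and by -1.07 in wild type cells, a difference of -1.43 ± 0.21 (SE, adjusted p = 0.00965).

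At 24 h the receptor chain gene Il10ra differed by 1.02, with a change of -0.94 in TAK1-deleted and -1.96 in wild type cells (adjusted p = 0.0105). Among transcription factors the differences were 1.47 for Maf, 1.83 for Jun and 0.67 for Ets1. Among cytokines Il1b differed by 2.38 (-0.20 in TAK1-deleted and -2.58 in wild type cells, adjusted p = 1.21e-05), Il1a by 1.63, Il12b by 1.19, Il15 by 0.98 and Ltb by 0.79. Il1b was already lower in TAK1-deleted cells at 0 h, by a difference of -0.81. Among surface molecules the differences were 1.62 for Cd80, 1.09 for Lag3, 0.74 for Cd9, 0.69 for Nt5e and -1.02 for Havcr1, the 1 negative difference at 24 h. Nt5e and Cd9 were not called between the genotypes at 24 h itself. Nt5e differed by -0.55 at 0 h and by 0.14 at 24 h. Cd9 at 0 h was 8.93 and 8.53 in TAK1-deleted arrays, against 9.11 and 9.36 in wild type arrays. For Il10 the difference in change at 24 h was -0.01 ± 0.33, with no test.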

How the results depend on the processing

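The 24 h difference of Il10 (TAK1-deleted minus wild type) was uncalled under all 11 alternatives, with adjusted p of 0.637 to 0.934; it ranged from -0.34 to 0.11 with 1 array left out and turned positive (0.11) without TAK1-deleted 24 h replicate 1. The counts of listed genes called in wild type cells against 0 h stayed within 1.5 times their value under all 10 alternatives. For the genotype contrasts, the counts with 1 array left out ranged from 0 to 1 at 0 h (3 with all arrays), 5 to 8 at 1 h (7), 5 to 12 at 3 h (11), 4 to 7 at 6 h (11) and 10 to 16 at 24 h (25); the spread of a lone array was taken from the other groups. Quantile normalization gave 7 at 0 h and 16 at 1 h. With replicate number as a block, the counts were 14 at 0 h, 22 at 1 h, 22 at 3 h, 26 at 6 h and 39 at 24 h, and calls over all genes were 837 against 278 at 0 h, 1544 against 512 at 1 h, 995 against 324 at 3 h, 1458 against 303 at 6 h and 3442 against 1462 at 24 h without it. The groups share only the numbers of their 2 arrays: same-numbered arrays deviated together in 45 of 45 pairs of groups (r of 0.191 to 0.769), a hint from the data and not from the labels. The Il10 value under the block was -0.12. Of the 10 genes most like Il10, 4 were kept by Spearman's rho and 9 by group means. Levels near the floor of the array limit what can be said of Il10 at 0 and 24 h.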
